A study of Mus musculus with 17 samples.

Results

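The comparison described here asks what the addition of IPI-549 to MSA2 changed in RNA from mouse splenic B cells. MSA2 is a non-nucleotide agonist of STING, the adaptor of the cytosolic DNA sensing pathway. IPI-549 (eganelisib) is an inhibitor of the catalytic subunit of PI3K gamma, encoded by Pik3cg. The members are the 3 B cell libraries titled as treated with MSA2 plus IPI-549, called the combination here, and the 3 titled as treated with MSA2 alone. These 6 libraries are part of the 17 libraries of the series. The 3 untreated B cell libraries, called Control, are no side of the contrast and serve as a reference level. The series text states that B cells of KPC mice, a model of pancreatic cancer, were harvested and incubated with or without the agents. The labels give spleen as the tissue and WT as the genotype, and their treatment field reads Control for every library, so groups were taken from the titles. Doses, incubation time, the age of the mice and the way B cells were isolated are not given in the sources used here. Nothing in the labels says that libraries of a group came from separate mice or cultures, so p-values measure only the spread between these libraries.

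Mature splenic B cells express a receptor complex, the antigen presentation machinery of MHC class II and the survival receptor for BAFF. STING engages TBK1 and IRF3, which switch on type I interferon and chemokine genes, and secreted interferon then induces a second set of genes through its receptor. PI3K gamma acts downstream of G protein-coupled receptors and is prominent in myeloid cells, while B cells also use the delta isoform behind the B cell receptor. Regulatory B cells are B cells that dampen immunity, with interleukin-10 (Il10) and interleukin-35 (Ebi3 with Il12a) as their best known products.

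Total counts were 41093440 to 44301332 in the MSA2 libraries, 44355591 to 48050413 in the combination libraries and 45113819 to 51433008 in Control. Levels below are CPM, counts relative to library size, scaled by trimmed mean of M-values (TMM), and log2 differences are the combination minus MSA2 with the standard error of the fit. Library numbers in the labels are 8, 11 and 12 for MSA2, 2, 5 and 6 for the combination and 1, 3 and 4 for Control. Any step that followed this order cannot be told apart from the difference between MSA2 alone and the combination.

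The MSA2 libraries stood apart from the other 6 before any single gene was considered. The 14 B cell markers summed to 4979 to 5462 CPM in the MSA2 libraries, 9780.2 to 10388 CPM in the combination libraries and 9833 to 10336 CPM in Control. Markers of several other spleen lineages went the opposite way. Neutrophil markers (14 genes) summed to 1767, 1847 and 1841 CPM in the MSA2 libraries and to 1.17, 0.71 and 0.792 CPM in the combination libraries. Erythroid markers (11 genes) summed to 1143 to 1335 CPM against 30.6 to 34 CPM, natural killer cell markers (11 genes) to 368 to 454 against 6.58 to 10.7 CPM, and monocyte and macrophage markers (16 genes) to 2167 to 2589 against 133 to 143 CPM. T cell markers (16 genes) summed to 1574 to 1980.1 CPM in the MSA2 and 335 to 364 CPM in the combination libraries. For each of these 5 lineages the MSA2 libraries were higher than every combination library and every Control library. Conventional dendritic cell and stromal and endothelial marker sums did not, at 767 to 876 against 879 to 922 CPM and 189 to 221 against 234 to 286 CPM, and platelet marker sums overlapped, at 69.5 to 84.3 against 57.3 to 76.4 CPM. A sum can rest mainly on a single gene. In Control, Wdfy4 made up most of the dendritic cell sum and Pecam1 most of the stromal and endothelial sum. Cd2 made up most of the T cell sum in the combination libraries. Such sums need not follow the other members of their lists, which are described below. In bulk RNA, fewer cells of a type and less RNA per cell cannot be told apart. No label says how pure the B cells were, and the part of other cells in the differences below was not tested.

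**Figure D1:**
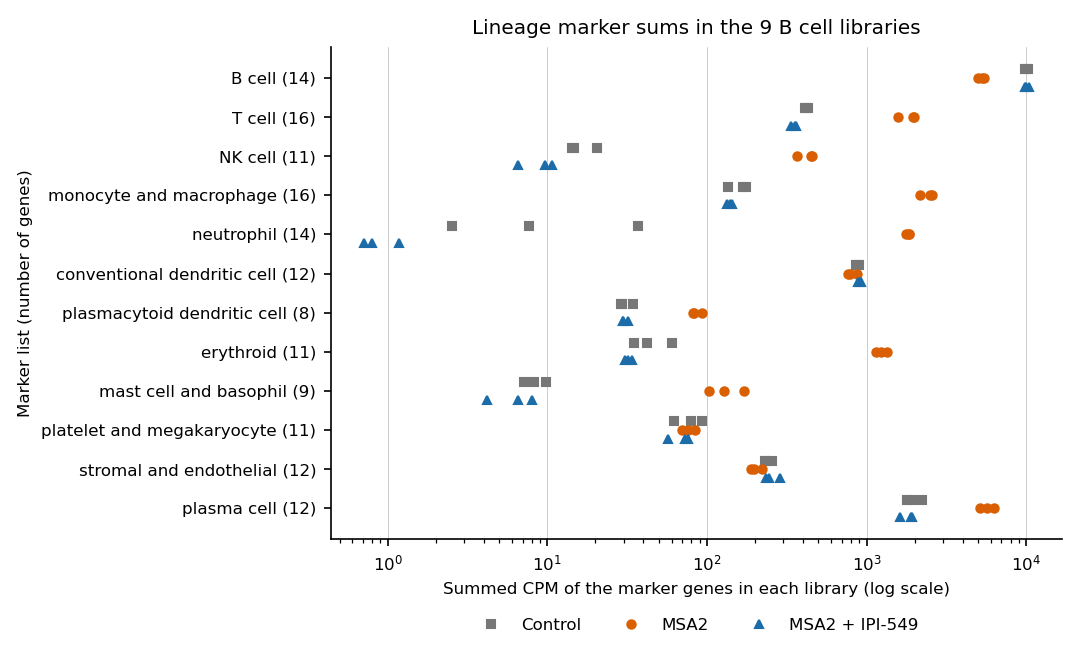
Summed CPM of the marker genes of 11 lineages and of plasma cells, 1 point per library on a log axis, for Control (squares), MSA2 (circles) and MSA2 plus IPI-549 (triangles). B cell markers are lower, and T, NK, myeloid, erythroid, mast cell and plasma cell markers higher, in the MSA2 libraries than in the other 6.

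Single defining genes gave the same picture. Cd3e, a chain of the T cell receptor complex, was at 61.7, 54.6 and 58.5 CPM in the MSA2 libraries and had no count in any combination library. With 3 counts over the combination group as the floor, Cd3e was at least 2840-fold lower. Bcl11b, a T cell transcription factor, was at 70.8, 71.6 and 80.6 CPM under MSA2 and likewise had no count in the combination, which makes it at least 3620-fold lower. Ngp, a granule protein gene of neutrophils, was at 287, 305 and 344 CPM in the MSA2 libraries, and the combination libraries held 1 count in all. Its ratio was 45580, with a 95% counting interval of 8181 to 1801000. S100a9, a calcium-binding protein of neutrophils and monocytes, was at 583, 527 and 590.4 CPM against 0.433, 0.137 and 0.11 CPM. It was also uneven in Control, at 15.4, 2.8 and 1.01 CPM. Hbb-bs, a beta globin gene, was at 470.2, 412 and 514 against 4.59, 6.94 and 7.22 CPM (log2 -6.22 ± 0.38, adjusted p = 1.97e-07). Lyz2, the lysozyme of myeloid cells, was at 734, 744 and 758 against 17.1, 15.5 and 15 CPM (log2 -5.55 ± 0.20, adjusted p = 5.77e-09). Gzma, a granzyme of killer cells, was at 153, 121 and 154 CPM under MSA2 and at 0.0216, 0.0458 and 0.044 CPM in the combination libraries. In each of these genes every MSA2 library lay above every combination library.

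Across the lineage lists, genes called at an adjusted p under 0.05 fell without exception in several lists: 11 of 11 NK markers, 16 of 16 monocyte and macrophage markers, 14 of 14 neutrophil markers, 11 of 11 erythroid markers and 9 of 9 mast cell and basophil markers. The list medians were log2 -7.99, -6.08, -10.57, -5.33 and -7.36. The last list had 4 members at 0 in the combination, and with these at their bound its median was -5.80. Of 16 T cell markers, 15 fell, with a median of -8.97. The exception was Cd2, at 296, 220.1 and 268 CPM under MSA2 and 308, 293 and 283 CPM in the combination, which Control libraries held at 339.8, 348 and 344 CPM. Of 8 plasmacytoid dendritic cell markers 7 fell, with Siglech, their lectin receptor, at 9.32, 10.8 and 11 against 0.0216, 0.115 and 0.154 CPM. Of 12 conventional dendritic cell markers 7 fell and 1 rose, Wdfy4, a cross-presentation gene that Control held at 696, 677 and 692 CPM (log2 0.64 ± 0.09, adjusted p = 0.000242). Clec10a and Itgax, both dendritic cell surface genes, fell, Clec10a from 2.11, 3.3 and 3.65 CPM to no count and Itgax from 53.4, 63.3 and 55.1 to 10.4, 12.7 and 13 CPM. Of 9 stromal and endothelial markers tested 5 fell and 1 rose, Pecam1, an adhesion molecule that Control held at 227, 232 and 249.9 CPM (log2 0.37 ± 0.10, adjusted p = 0.0113), and with only genes of at least 1 CPM in 3 libraries tested none of them fell. Of 11 platelet and megakaryocyte markers edgeR called 0, and 0 had an unadjusted p under 0.05, with a median of -0.18. DESeq2 called 0 and limma-voom 0 of them. Many of these genes passed the filter on low counts through the MSA2 libraries alone, so their counts describe the lists and support nothing further. As background, 22.9% of all genes tested were called lower and 14.1% higher.

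Over the whole table, 16180 of 55491 genes were tested. Of these, 2279 were called higher in the combination and 3706 lower. Against a minimum change of 1.5-fold the calls were 217 higher and 2397 lower. The calls were also counted by Control level. Among 9362 genes with a Control mean of at least 5 CPM, 2041 were called higher (21.8%) and 1273 lower (13.6%). Among 4364 genes with a Control mean under 1 CPM, 74 were called higher (1.70%) and 1751 lower (40.1%). The latter had a median level of 1.43 CPM in the MSA2 libraries and of 0.111 CPM in the combination, and 1725 of the 1751 averaged under 1 CPM in the combination. Such genes passed the filter on low counts mainly where MSA2 was high, which fixes their direction, so nothing is read from these shares.

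The combination level of most called genes lay near Control. Of the 2041 genes expressed in Control and called higher, 1872 (91.7%) had a combination mean within 1.25-fold of the Control mean, whereas the MSA2 mean did so for 573. Their median level was 71.2 CPM in Control, 53.1 CPM under MSA2 and 70.7 CPM in the combination. Of the 1273 expressed genes called lower, 1166 had a combination mean within 1.25-fold of Control, and 223 had such an MSA2 mean. These counts compare group means and carry no test. The share near Control was not counted over all expressed genes, so nothing particular to the called genes is read from it.

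**Figure D2:**
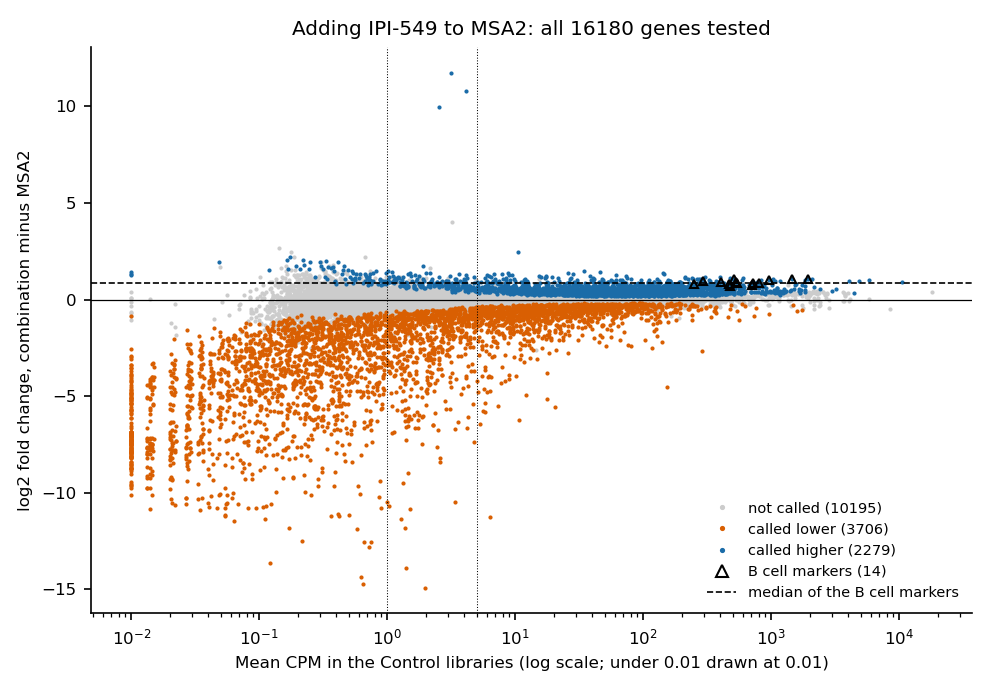
Each point is 1 of the 16180 genes tested, placed by its mean Control CPM (log axis) and its log2 fold change, combination minus MSA2, with calls at an adjusted p under 0.05 in color. Dotted lines mark 1 and 5 CPM, the dashed line the median of the 14 B cell markers (triangles). Genes near absent in Control are called almost only lower, and the B cell markers lie near the upper edge of the expressed genes.

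All 14 B cell markers rose, by log2 0.71 to 1.07, with a median of 0.87. Cd79a, a signalling chain of the B cell receptor, was at 975, 748 and 1034 CPM under MSA2 and 1914, 1876 and 1990.1 CPM in the combination, beside 1874, 1835 and 2072 CPM in Control (log2 1.07 ± 0.12, adjusted p = 3.52e-05). Pax5, the transcription factor that fixes B cell identity, was at 489.5, 579 and 497 against 999, 1040.4 and 1098 CPM (log2 1.0 ± 0.09, adjusted p = 4.92e-06). Ms4a1, which encodes CD20, was at 732, 613 and 739 against 1475, 1384 and 1497 CPM (log2 1.06 ± 0.10, adjusted p = 5.96e-06). Because these genes differed together, every comparison was also read on a second scale, in which library factors hold the geometric mean of the 14 B cell markers equal in all libraries. This B marker scale lowers the log2 difference of most genes by about 0.90, and by less in genes with counts near 0 in a group. The median of all genes tested was 0.01 on the TMM scale and -0.90 on the B marker scale, where changes are relative to the B cell markers. On the B marker scale 22 genes were called higher (0.136%) and 13664 lower (84.4%). Of the 2041 expressed genes that rose on the TMM scale, 1616 were called lower on the B marker scale, 408 were not called and 17 were called higher. A direction given below for a gene or list is therefore that of the TMM scale, and B marker values follow for the genes and lists described most fully.

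The genes that rose on both scales rose more than the B cell markers did. Of the 22, 7 kept their call on the B marker scale in each of the 9 fits that left out 1 library. Tnfrsf13c (GRCm38 chr15:82221743-82224369), 1 of the 7, encodes the BAFF receptor that sustains mature B cells. It was at 37.5, 36.2 and 41.2 CPM in the MSA2 libraries and 99.5, 112 and 89.4 CPM in the combination libraries, beside 123, 161 and 148 CPM in Control. The groups did not overlap. Its log2 difference was 1.39 ± 0.11, adjusted p = 2.23e-06 on the TMM scale and 0.49 ± 0.12, adjusted p = 0.00267, on the B marker scale. Vpreb3, a protein of the immature receptor complex, was at 15.4, 13.5 and 17.3 against 37.4, 34.2 and 35.5 CPM, with a B marker difference of 0.31 ± 0.09 (adjusted p = 0.00571). Cnr2, the cannabinoid receptor of immune cells, was at 94.2, 87.9 and 90.8 against 196, 186 and 206 CPM (0.20 ± 0.06, adjusted p = 0.0136). Crisp3, a cysteine-rich secretory protein, was at 9.71, 7.55 and 9.31 against 24.5, 22.6 and 21.6 CPM (0.47 ± 0.10, adjusted p = 0.00152). The other 3 are gene models or pseudogenes (E330020D12Rik, Gm20431 and Rpl7a-ps11), whose expected counts can be split with similar copies.

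Other genes among the 22 passed on the B marker scale by a smaller margin. Fcer2a, the low-affinity IgE receptor CD23 of follicular B cells, was at 243, 216 and 243 against 489, 472 and 524 CPM, with a B marker difference of 0.18 ± 0.07 (adjusted p = 0.0361). Its call was lost without the second Control library or the first or the second MSA2 library or any 1 combination library (adjusted p = 0.0501 to 0.108). Fcrl1, an Fc receptor-like protein of B cells, was at 118, 99.7 and 129 against 248, 239 and 271 CPM (0.23 ± 0.08, adjusted p = 0.0189) and was not called without the third combination library (adjusted p = 0.0665). Rgs13, a brake on G protein signalling known from germinal centre B cells, was at 11.3, 7.48 and 8.63 against 26.3, 24.5 and 18.2 CPM (0.44 ± 0.17, adjusted p = 0.0349). It lost its call without the second or the third MSA2 library or the first or the second combination library (adjusted p = 0.0894 to 0.128). Eif2ak3, which encodes the stress kinase PERK, was at 195, 185 and 163 against 424, 412 and 399.9 CPM (0.28 ± 0.11, adjusted p = 0.0372), a call that ended without the third MSA2 library or the first or the second combination library (adjusted p = 0.0884 to 0.124). The combination means of Fcer2a, Fcrl1, Vpreb3, Cnr2, Rgs13 and Eif2ak3 lay within 1.25-fold of Control, and that of Tnfrsf13c was lower, at 100.4 against 144 CPM. Bbc3 and Pxdc1, also among the 22, lay above it and are described further on. The number of genes called higher on this scale was 12 without the second combination library, 13 without the first, 35 without the third and 35 without the second MSA2 library. Of the 22 genes, 3 had no count in any MSA2 library.

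Genes of mature B cell function moved up on the TMM scale in proportions that differed from list to list. The lists of this paragraph stand beside 14.1% higher and 22.9% lower among all genes tested. All 13 tested MHC class II genes rose, with a median of 0.94, next to the B cell marker median of 0.87. H2-Aa, an alpha chain that presents peptide, was at 3088, 2551 and 3216 against 5904, 5778 and 5918 CPM (log2 0.99 ± 0.11, adjusted p = 3.5e-05). H2-Eb2 was the only member also called higher on the B marker scale (0.19 ± 0.07, adjusted p = 0.0202), a call that was lost without the first or the second combination library (adjusted p = 0.0725 to 0.0782). On that scale 1 member, the protease Ctss, was called lower and the other 11 were not called. On the TMM scale the rise of Ctss (log2 0.28 ± 0.10, adjusted p = 0.0457) was lost without the first or the second Control library or the first or the second MSA2 library or any 1 combination library (adjusted p = 0.0566 to 0.141). Of 20 B cell receptor signalling genes 18 rose, with a median of 0.56. Rasgrp3, a Ras activator behind the receptor, was at 101, 109.5 and 115 against 202, 197 and 222 CPM (log2 0.93 ± 0.08, adjusted p = 4.3e-06), and Prkcb, the protein kinase C that feeds NF-kB, at 225, 235 and 228 against 391, 386 and 395 CPM (log2 0.77 ± 0.07, adjusted p = 4.67e-06). The list median on the B marker scale was -0.35, with 17 members called lower, beside 84.4% of all genes tested on that scale. Under a test against a minimum of 1.5-fold, 2 of these genes were called higher. Of 11 follicular B cell genes 7 rose (median 0.57) and of 12 marginal zone genes 6 rose and 3 fell (median 0.33). On the B marker scale the medians of these lists were -0.33 and -0.57.

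Plasma cell markers went the other way. Igha, the constant region of IgA, was at 2602, 2341 and 2889.7 CPM under MSA2 and 131, 119 and 85.7 CPM in the combination (log2 -4.55 ± 0.18, adjusted p = 7.73e-09). Control held it at 141, 148 and 172 CPM. Jchain, which joins secreted IgA and IgM, was at 1391, 1098 and 1544 against 236, 236 and 169 CPM (log2 -2.65 ± 0.18, adjusted p = 3.75e-07), and Tnfrsf17, the receptor BCMA of plasma cells, at 2.52, 2.56 and 3.54 against 0.26, 0.0687 and 0.132 CPM (log2 -4.19 ± 0.46, adjusted p = 2.12e-05). Of 12 plasma cell markers 8 fell and 3 rose, beside 22.9% lower and 14.1% higher among all genes tested. The 3 that rose, Irf4, Slamf7 and Mzb1, are also expressed by other B cells, and Irf4 was at 515, 629 and 443 against 936, 937 and 786 CPM (log2 0.74 ± 0.14, adjusted p = 0.00129). The call of Mzb1 was lost without the first MSA2 library or the first combination library (adjusted p = 0.0609 to 0.0985). Irf4 was not called on the B marker scale and the other 2 were called lower, Slamf7 with a call that ended without the first or the second MSA2 library or the third combination library (adjusted p = 0.0969 to 0.12).

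Type I interferon genes are the first products of STING signalling and were close to 0 in Control, so they are described with their promoters. Of 17 genes of this family, 8 passed the filter on low counts. Ifna4, Ifna1 and Ifna16 rose, Ifna2 and Ifnab fell, and Ifnb1, Ifna5 and Ifna6 did not pass the test. The genes lie in 1 cluster on chromosome 4. The stretches below are the 200 bases before the annotated start of 4 alpha interferon genes, printed 5′ to 3′ on the strand of the gene, from RefSeq on GRCm38.p6. They are shown because these members of 1 gene cluster moved in different directions, though the fall of Ifna2 was lost in several fits, as given below. Ifnab, whose promoter is not shown, held 44 counts in the MSA2 libraries and 3 in the combination libraries. Its fall was called in each of the 9 fits that left out 1 library. Capitals mark each match to GAAANNGAAA, the core of the site bound by interferon regulatory factors, searched on both strands with overlaps allowed.
Ifna4 (chr4:88841616-88841815, plus strand): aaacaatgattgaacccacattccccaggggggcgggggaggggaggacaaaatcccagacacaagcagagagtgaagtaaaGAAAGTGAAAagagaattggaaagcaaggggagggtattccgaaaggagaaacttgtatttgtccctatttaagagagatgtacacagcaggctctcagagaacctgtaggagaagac
Ifna1 (chr4:88849887-88850086, plus strand): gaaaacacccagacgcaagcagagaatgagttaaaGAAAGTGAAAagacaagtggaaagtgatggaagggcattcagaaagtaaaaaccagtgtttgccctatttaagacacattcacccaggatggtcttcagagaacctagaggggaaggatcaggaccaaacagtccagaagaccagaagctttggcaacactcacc
Ifna16 (chr4:88676857-88677056, minus strand): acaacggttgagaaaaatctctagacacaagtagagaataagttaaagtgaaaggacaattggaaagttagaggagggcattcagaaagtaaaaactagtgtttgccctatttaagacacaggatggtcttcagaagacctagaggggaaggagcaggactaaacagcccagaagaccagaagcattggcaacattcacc
Ifna2 (chr4:88683780-88683979, minus strand): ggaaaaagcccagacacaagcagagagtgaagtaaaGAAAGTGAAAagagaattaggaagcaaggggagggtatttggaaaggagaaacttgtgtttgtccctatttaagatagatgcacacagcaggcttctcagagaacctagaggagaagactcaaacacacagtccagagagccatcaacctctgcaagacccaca
Ifna4, Ifna1 and Ifna2 each held 1 match, Ifna16 held none, and 746 of 32851 RefSeq promoter stretches of the same length held at least 1 (2.27%). The matched stretch was the same in Ifna4 and Ifna1, which rose, and in Ifna2, which fell. A match describes letters and is no evidence of binding.

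Ifna4 was at 13.6, 9.8 and 8.44 CPM in the MSA2 libraries and 33.6, 33.6 and 19.8 CPM in the combination libraries, and the Control libraries held 1 count in all. The third combination library was lower than the other two, yet above every MSA2 library. The log2 difference was 1.45 ± 0.22, adjusted p = 0.000329, and Ifna4 was also called higher on the B marker scale (0.55 ± 0.23, adjusted p = 0.0463). The second of these calls was lost without any 1 Control library or the second or the third MSA2 library or the first or the second combination library (adjusted p = 0.0564 to 0.158). Ifna1 was at 18.3, 12.4 and 14.7 against 43.2, 41.7 and 28.9 CPM (log2 1.32 ± 0.18, adjusted p = 0.000369), and Ifna16 at 3.28, 2.84 and 2.43 against 8.01, 7.33 and 5.02 CPM (log2 1.25 ± 0.21, adjusted p = 0.00137). Neither was called on the B marker scale, with differences of 0.43 ± 0.19 (adjusted p = 0.0594) and 0.35 ± 0.22 (adjusted p = 0.171). Ifna1 was called higher on it without the first MSA2 library or the third combination library (adjusted p = 0.00502 to 0.0258), and in a fit with the suffix of the library titles, which numbers the libraries of a group, as a replicate block (0.41, adjusted p = 0.0274). Ifna16 was called without the third combination library (adjusted p = 0.0307). Ifna2 was at 4.89, 3.98 and 7.94 against 3.59, 3.5 and 2.16 CPM (log2 -0.86 ± 0.29, adjusted p = 0.0465). Its fall was lost with the replicate block (-0.82, adjusted p = 0.0831) and without the first or the third MSA2 library or any 1 combination library (adjusted p = 0.0648 to 0.147). Ifnb1, the beta interferon gene, was at 0.978, 0.722 and 1.18 against 1.23, 1.53 and 0.286 CPM, and these groups overlapped (log2 0.08 ± 0.51, adjusted p = 0.913). The alpha genes are near-identical copies whose reads can be split between them, so the value of a single member is uncertain. Summed over the family, the level was 44.1, 31.8 and 40.2 CPM under MSA2 and 92.6, 89.9 and 57.6 CPM in the combination. The mean of this sum was 2.067 times as high in the combination, beside 1.915 times for the B cell marker sum.

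**Figure D3:**
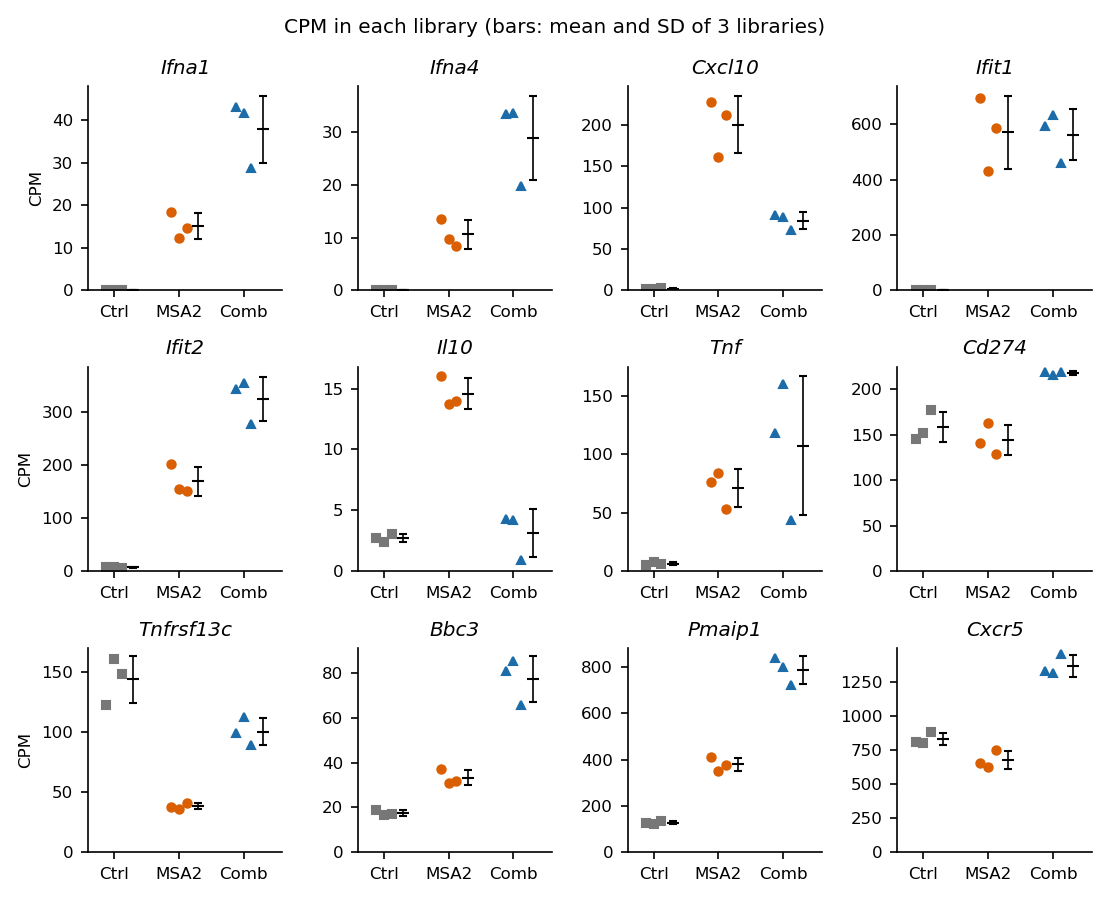
CPM of 12 genes in each of the 9 B cell libraries (Control squares, MSA2 circles, combination triangles), with the mean and SD of each group of 3 beside the points; each vertical axis starts at 0. Ifna1, Ifna4, Ifit2, Bbc3, Pmaip1 and Cxcr5 are highest in the combination, Cxcl10 and Il10 in the MSA2 libraries, and Tnf spreads most in the combination.

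Genes induced by interferon did not follow the alpha interferon genes as a group. Of 34 interferon-stimulated genes 2 rose, 15 fell and 17 were not called, with a median of -0.20. Among all genes tested 14.1% were called higher and 22.9% lower. Without the third combination library 4 rose, and against a minimum of 1.5-fold 7 fell. Ifit2, an antiviral RNA-binding protein, was at 202, 155 and 152 against 344, 355 and 278 CPM (log2 0.94 ± 0.12, adjusted p = 0.000105), and Oasl1, a regulator of Irf7 translation, at 109, 113 and 74.8 against 214, 257 and 162 CPM (log2 1.10 ± 0.17, adjusted p = 0.000391). Control held them at 7.91, 7.54 and 6.88 and 17.2, 17.4 and 16.7 CPM, and on the B marker scale neither was called. Ifit1, another member of the Ifit family, was at 695, 432 and 586 against 594, 633 and 460.2 CPM, where the groups overlapped (log2 -0.02 ± 0.17, adjusted p = 0.937). Isg15, the ubiquitin-like modifier, overlapped likewise at 261, 181 and 291 against 242, 246 and 186 CPM (log2 -0.12 ± 0.16, adjusted p = 0.596). Both were called lower on the B marker scale (-0.92 and -1.01). Oas3, an oligoadenylate synthetase, fell from 24.5, 30.8 and 24.7 CPM to 5.56, 6.0 and 6.38 CPM, where Control was at 5.53, 5.07 and 5.93 CPM (log2 -2.16 ± 0.12, adjusted p = 9.28e-08). Ifih1, the RNA sensor MDA5, fell from 29.9, 31.4 and 20.4 to 9.45, 11.4 and 6.54 CPM (log2 -1.58 ± 0.20, adjusted p = 7.47e-05), and Oasl2 from 25.9, 35.9 and 18.7 to 7.85, 10.7 and 6.4 CPM (log2 -1.69 ± 0.23, adjusted p = 0.000129). The sum over the list overlapped between the groups, at 2945, 2432 and 2612 CPM and 2756, 2879.7 and 2330.5 CPM, and was 856 to 884 CPM in Control.

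Cytokine and chemokine genes mostly fell: 12 of 20 tested, against 3 that rose, with a median of -1.14. Of all genes tested 22.9% were called lower and 14.1% higher. The number that rose was 1 without the first or the second combination library, and 5 without the third. Cxcl10 (GRCm38 chr5:92346638-92348889), which attracts T cells through CXCR3, was at 228, 161 and 212 CPM under MSA2 and 91.1, 89.3 and 72.8 CPM in the combination (log2 -1.25 ± 0.15, adjusted p = 5.29e-05). Both groups were far above Control, at 2.26, 1.49 and 2.34 CPM. Il6, the B cell and acute phase cytokine, was at 5.06, 5.56 and 3.84 against 3.16, 2.27 and 1.63 CPM (log2 -1.03 ± 0.24, adjusted p = 0.00522). Il1b, a myeloid cytokine, fell from 297, 370.0 and 223 to 10.1, 8.27 and 6.56 CPM and Ccl5, a chemokine of T and NK cells, from 187, 145 and 201 to 9.95, 10.7 and 10.4 CPM, beside 21.7, 13.5 and 18.1 CPM of Il1b and 10.9, 8.81 and 6.97 CPM of Ccl5 in Control. Ifng, the interferon of T and NK cells, was at 30.9, 24.5 and 49 against 5.5, 4.6 and 1.85 CPM. The myeloid, T and NK marker sums given above fell in the same libraries. Ccl4, a chemokine that activated B cells also make, was at 65.9, 61.8 and 73.9 against 126, 111 and 72.3 CPM, with the third combination library inside the MSA2 range (log2 0.62 ± 0.16, adjusted p = 0.0117). Its call was lost without the first combination library (adjusted p = 0.0548). Tnf was at 76.6, 83.7 and 53.4 against 118, 160.2 and 43.8 CPM, and the third combination library lay below every MSA2 library (log2 0.59 ± 0.36, adjusted p = 0.221). It was called higher without the third combination library (adjusted p = 0.00258). Neither Ccl4 nor Tnf was called on the B marker scale, where Ccl4 was called lower without the first combination library (adjusted p = 0.0325).

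Among the products by which regulatory B cells are known, Il10 (GRCm38 chr1:131019845-131024974) fell. It was at 16, 13.7 and 14 CPM in the MSA2 libraries and 4.28, 4.24 and 0.902 CPM in the combination libraries, beside 2.72, 2.38 and 3.08 CPM in Control. No combination library reached an MSA2 library, and the third was under every Control library. The log2 difference was -2.21 ± 0.39, adjusted p = 0.000868, and -3.11 ± 0.41 (adjusted p = 3.48e-05) on the B marker scale. The B marker scale does not remove RNA of other cells. The myeloid and T cell marker sums fell in the same libraries, and which cells held the Il10 RNA was not tested. Ebi3 was at 6.78, 6.6 and 7.54 against 5.45, 5.63 and 4.99 CPM (log2 -0.38 ± 0.13, adjusted p = 0.0453), a fall that was lost with the replicate block (-0.38, adjusted p = 0.0512) and without the second Control library or any 1 MSA2 library or any 1 combination library (adjusted p = 0.0586 to 0.124). Il12a, its partner in interleukin-35, was at 3.85, 3.54 and 2.56 against 5.21, 4.99 and 4.09 CPM without passing the test (log2 0.52 ± 0.19, adjusted p = 0.051). It passed as higher with the replicate block (0.53, adjusted p = 0.0153) and without the first Control library or the first MSA2 library or the third combination library (adjusted p = 0.0343 to 0.0375). It was called lower on the B marker scale with the block (-0.37, adjusted p = 0.0395) and without the third MSA2 library (adjusted p = 0.018). Over the 22 genes of the regulatory B cell list 13 fell and 6 rose, beside 22.9% lower and 14.1% higher among all genes tested. Among the falls were those of genes that T and NK cells also express: Gzmb, a granzyme, at 43.5, 39.6 and 39 against 0.0216, 0.0229 and 0 CPM, Tigit, an inhibitory receptor, at 19.8, 16 and 13.9 against 0.346, 0 and 0.088 CPM, and Cd5 at 83.2, 72.2 and 84.7 against 1.49, 2.08 and 1.14 CPM. Their Control levels were under 4 CPM, and the T and NK marker sums moved with them. Cd274, which encodes the checkpoint ligand PD-L1, rose from 141, 162 and 129 to 219, 215 and 218 CPM (log2 0.59 ± 0.10, adjusted p = 0.000543) and was called lower on the B marker scale (-0.31 ± 0.11, adjusted p = 0.0178), except without the second MSA2 library (adjusted p = 0.0603). Pdcd1lg2, its relative PD-L2, was at 8.84, 8.94 and 6.15 against 16, 17.3 and 8.85 CPM (log2 0.81 ± 0.22, adjusted p = 0.0139), with no call without the first or the second combination library (adjusted p = 0.0549 to 0.0599). Cd24a also rose on the TMM scale and was not called on the B marker scale.

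Costimulation genes moved in both directions. Cd40, the receptor for T cell help, was at 39.6, 35.5 and 49.6 against 70.5, 72.8 and 91.6 CPM (log2 0.91 ± 0.13, adjusted p = 0.000163), next to 72.6, 71.2 and 69.9 CPM in Control, and its B marker difference was 0.01. Cd86, a ligand of CD28, was at 85.5, 82.9 and 65.6 against 127, 143 and 86.3 CPM (log2 0.60 ± 0.18, adjusted p = 0.0234). Its rise was lost without the third MSA2 library or the first or the second combination library (adjusted p = 0.0647 to 0.0964), and on the B marker scale it was not called (-0.30 ± 0.20, adjusted p = 0.185) but was called lower with the replicate block (-0.32, adjusted p = 0.0117). Cd80, the other ligand, fell from 12.3, 17 and 7.72 to 3.03, 4.21 and 1.83 CPM (log2 -2.03 ± 0.31, adjusted p = 0.00033), and Vsir, which encodes the checkpoint VISTA found on myeloid and T cells, from 181, 160.2 and 169 to 52.2, 46.3 and 34.5 CPM (log2 -1.94 ± 0.14, adjusted p = 9.04e-07). Of 17 members tested 7 rose and 8 fell. Of 18 MHC class I genes 1 rose and 3 fell, with a median of -0.01, beside 14.1% higher and 22.9% lower among all genes tested. H2-Q7 fell from 535, 554 and 505 to 325, 355 and 324 CPM and is a member of a multigene family whose copies share reads (log2 -0.67 ± 0.08, adjusted p = 5.55e-05).

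The genes that encode the 2 drug targets did not pass the test on the TMM scale. Sting1 was at 38.8, 36.4 and 43.4 against 39.7, 35.9 and 41.3 CPM (log2 -0.02 ± 0.09, adjusted p = 0.867), and Pik3cg at 66.7, 72.6 and 53.6 against 73.5, 74.8 and 61.5 CPM (log2 0.12 ± 0.11, adjusted p = 0.435). The groups overlapped in both genes. On the B marker scale both were called lower, Sting1 by -0.92 and Pik3cg by -0.79, near the median of all genes on that scale. The regulatory subunits of PI3K gamma, Pik3r5 and Pik3r6, fell: Pik3r5 from 66.3, 66.4 and 63.8 to 22.3, 24.1 and 22.9 CPM (log2 -1.50 ± 0.07, adjusted p = 3.56e-08), with Control at 23.8, 22.1 and 21.5 CPM, and Pik3r6 from 2.43, 3.3 and 1.93 to 0.303, 0.298 and 0.396 CPM. Pik3ap1, the adaptor BCAP that couples the B cell receptor to PI3K, was at 399.9, 415 and 305 against 703, 823 and 594 CPM (log2 0.92 ± 0.14, adjusted p = 0.000268). Of 22 PI3K genes 5 rose and 5 fell, with a median of 0.06, and 8 rose without the second MSA2 library. These counts stand beside 14.1% higher and 22.9% lower among all genes tested, and nothing particular to the list is read from them. In the STING pathway list 6 of 17 fell and 1 rose, and 3 rose with the replicate block, beside the same background. Ifi204, a DNA sensor of myeloid cells, fell from 15.8, 18.7 and 18.1 to 0.173, 0.321 and 0.22 CPM, Ikbke, a kinase related to TBK1, from 53.4, 50.3 and 53.9 to 9.3, 10.7 and 11 CPM, and Cgas, the sensor upstream of STING, from 4.52, 5.1 and 4.56 to 1.38, 1.12 and 1.65 CPM. Tbk1 and Irf3 were not called. Of 23 FOXO targets, which PI3K signalling represses through AKT, 10 rose and 4 fell (median 0.30, and -0.60 on the B marker scale). Among all genes tested the shares were 14.1% higher and 22.9% lower. On the B marker scale 19 members were called lower and 0 higher, beside 84.4% of all genes tested called lower. The largest falls, Tcf7 (323, 243 and 309 to 1.97, 1.63 and 1.67 CPM) and Il7r (145, 124 and 120.3 to 1.73, 1.67 and 1.41 CPM), were in T cell genes, and Foxo1, Bcl6 and Ccr7 rose by 0.55, 0.51 and 0.57. On the B marker scale Foxo1, Bcl6 and Ccr7 were called lower (adjusted p = 0.00126, 0.000637 and 0.0145). The lower call of Ccr7 was lost without the second combination library (adjusted p = 0.0625). Against a minimum of 1.5-fold no member of the FOXO list was called higher.

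**Figure D4:**
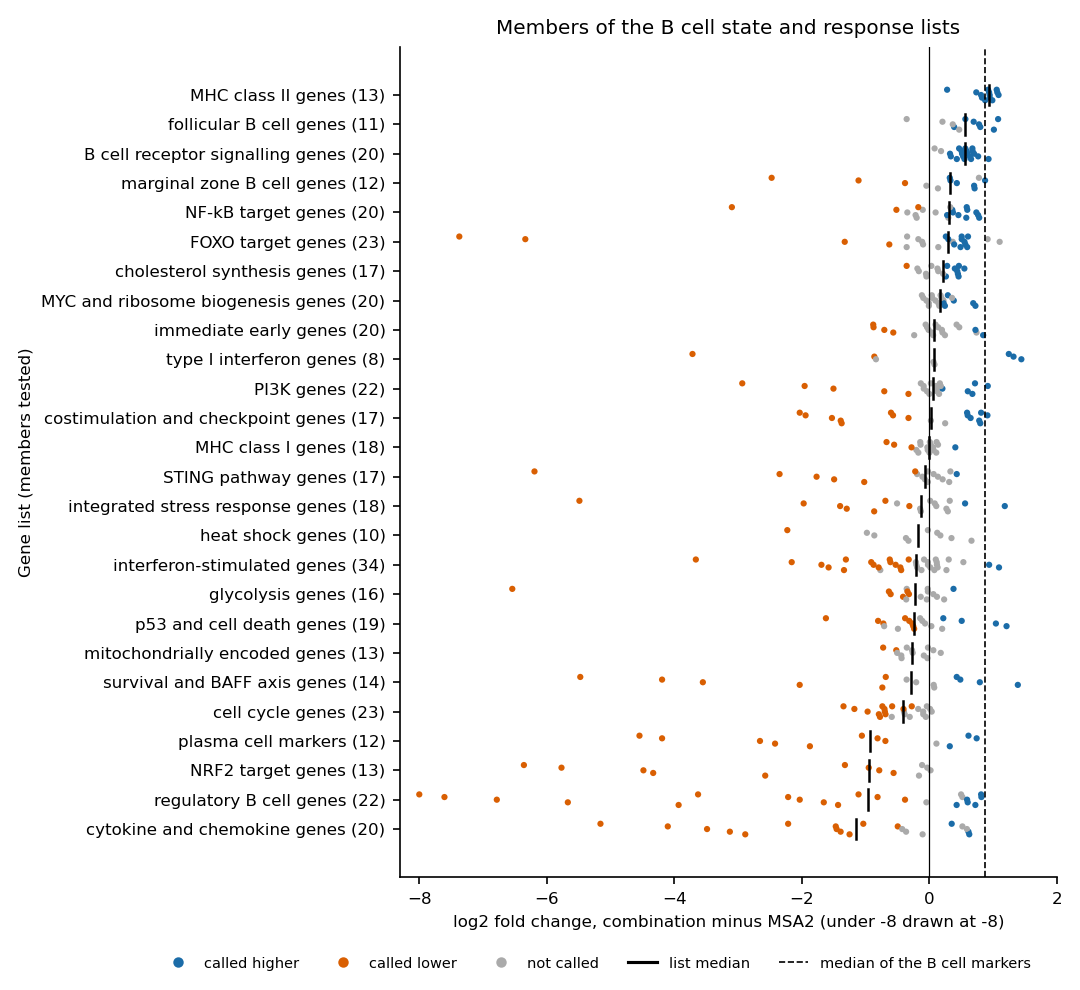
Log2 fold change, combination minus MSA2, of each tested member of 26 gene lists, colored by its call, with the median of each list as a short bar. The dashed line marks the median of the 14 B cell markers (0.87). MHC class II genes cluster on it, and cytokine, regulatory B cell, NRF2 and plasma cell lists trail to low values.

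Among survival and death genes, those of a pair of death-promoting proteins rose. Bbc3 (GRCm38 chr7:16308393-16318205), which encodes the death-promoting BH3-only protein PUMA, was at 37, 30.9 and 32 CPM in the MSA2 libraries and 80.7, 85.3 and 65.7 CPM in the combination libraries, with Control at 18.9, 16.8 and 17 CPM. Its log2 difference was 1.21 ± 0.11, adjusted p = 4.74e-06, and 0.31 ± 0.12 (adjusted p = 0.0263) on the B marker scale, where the call was lost without the second or the third MSA2 library or the first or the second combination library (adjusted p = 0.0714 to 0.116). Pmaip1, which encodes the related protein NOXA, was at 409.9, 353 and 378 against 837, 800.1 and 720.3 CPM (log2 1.05 ± 0.09, adjusted p = 3.19e-06), with Control at 126, 123 and 136 CPM. It was not called on the B marker scale (0.15 ± 0.09, adjusted p = 0.133), except without the third combination library (adjusted p = 0.0326). In both genes the 3 groups did not overlap. Bcl2l11, which encodes BIM, was at 295, 302 and 283 against 413, 444 and 397 CPM (log2 0.51 ± 0.08, adjusted p = 0.000432). On the B marker scale Bcl2l11 was called lower (adjusted p = 0.00188), also in each of the 9 fits that left out 1 library. Zmat3, an RNA-binding target of p53, fell from 8.99, 10.1 and 8.63 to 4.91, 6.07 and 4.93 CPM (log2 -0.80 ± 0.14, adjusted p = 0.00088). Over the list of 19 tested, 4 rose and 8 fell, beside 14.1% higher and 22.9% lower among all genes tested. The falls numbered 4 without the first MSA2 library and 3, 5 and 4 without the first, the second and the third combination library, and none was called against a minimum of 1.5-fold. Among survival genes, the ligands BAFF (Tnfsf13b) and APRIL (Tnfsf13), which myeloid cells make, fell from 1.11, 1.4 and 1.48 to 0.13, 0.0916 and 0.11 CPM and from 3.91, 4.53 and 5.72 to 0.0649, 0.0916 and 0.154 CPM. Bcl2l1, which encodes BCL-XL, fell (log2 -0.73 ± 0.17, adjusted p = 0.00609), and Bcl2 and Mcl1 were not called. Tnfrsf13b, the receptor TACI, rose (log2 0.79 ± 0.09, adjusted p = 3.02e-05) and was not called on the B marker scale.

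NF-kB targets rose in 10 of 20 cases and fell in 3 (median 0.32), beside 14.1% higher and 22.9% lower among all genes tested. Without the first or the second combination library 1 fell, and against a minimum of 1.5-fold none was called higher. Rel, the c-Rel subunit of B cells, was at 1045, 1236 and 908 against 1803, 1830.3 and 1797 CPM (log2 0.77 ± 0.11, adjusted p = 0.000231), and Cd83 at 778, 737 and 1066 against 1377, 1318 and 1751 CPM (log2 0.78 ± 0.15, adjusted p = 0.00163). Rel, Cd83 and Nfkbid were not called on the B marker scale and the other 17 were called lower, beside 84.4% of all genes tested. Rel was called lower there without the third MSA2 library (adjusted p = 0.0341). Of 13 NRF2 targets 9 fell, beside the same 22.9% lower among all genes tested. Hmox1, the haem-degrading enzyme of macrophages, fell from 209.8, 258 and 299 to 4.52, 3.8 and 5.72 CPM, Slc7a11, the cystine importer, from 29.8, 50.4 and 17 to 0.346, 0.527 and 0.308 CPM, and Gsr, glutathione reductase, from 69.4, 84.9 and 69.8 to 3.5, 2.98 and 3.52 CPM. Control held these 3 at under 8 CPM, and the myeloid marker sum fell in the same libraries. In the integrated stress response list 7 of 18 fell and 2 rose, Eif2ak3 and Atf3, beside 22.9% lower and 14.1% higher among all genes tested. Without the third MSA2 library 5 rose. On the B marker scale all 13 NRF2 targets and 17 of the 18 stress response genes were called lower, beside 84.4% of all genes tested. Eif2ak3 was the 1 called higher. Atf3, a stress-induced repressor, was at 258, 255 and 231 against 418, 378 and 304 CPM (log2 0.56 ± 0.13, adjusted p = 0.00614) and was called lower on the B marker scale (-0.34 ± 0.14, adjusted p = 0.0429), a call that ended without the second Control library or the first or the second MSA2 library or the second or the third combination library (adjusted p = 0.0566 to 0.157).

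Cell cycle genes fell in 12 of 23 cases, and in 7 without the third combination library. Mki67, the proliferation antigen, was at 86.9, 120.0 and 87.2 against 42.7, 49.9 and 37.8 CPM (log2 -1.17 ± 0.21, adjusted p = 0.000891), and Rrm2, which makes deoxynucleotides, at 42, 45.1 and 44.5 against 22.8, 24 and 20.6 CPM (log2 -0.97 ± 0.17, adjusted p = 0.000913). Control held Mki67 at 36.3, 34.2 and 59.7 CPM. All lists of this paragraph stand beside 14.1% higher and 22.9% lower among all genes tested. Of 20 genes of MYC and ribosome biogenesis 6 rose, and 2 without the second combination library. Myc itself was at 234, 260.0 and 190.1 against 421, 417 and 294 CPM (log2 0.73 ± 0.17, adjusted p = 0.00496). Of 17 cholesterol synthesis genes 8 rose, by up to log2 0.55 in Sqle, and none was called higher against a minimum of 1.5-fold. Glycolysis genes fell in 6 of 16 cases. Slc16a3, a lactate exporter, had the largest fall, from 77.3, 93 and 61.6 to 0.887, 0.802 and 0.792 CPM. Immediate early genes were not called in 14 of 20 cases, with 2 higher and 4 lower, and 5 were higher without the third MSA2 library and with the replicate block. On the B marker scale all tested members of the cell cycle, cholesterol and glycolysis lists were called lower, beside 84.4% of all genes tested. Myc was not called on that scale. Heat shock genes summed to 6296, 5742 and 11408 CPM in the MSA2 libraries and 5555, 5598 and 8804 CPM in the combination libraries, so the third library of each group was higher than the rest of its group. Mitochondrially encoded genes summed to 34154 to 38479 CPM under MSA2 and 28454 to 29245 CPM in the combination, with 2 of 13 called lower, 5 without the first and 4 without the third Control library.

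Some genes expressed in Control did not simply lie near the Control level in the combination. These were chosen after their values were seen, as genes called in the comparison that were higher than MSA2 with a combination mean at least 1.5-fold above the Control mean, or lower than MSA2 with one at least 1.5-fold below it, and they carry no test of that ratio. There were 40 genes above Control and 25 below. In 33 of the 40 the MSA2 mean also lay above Control. On the B marker scale 3 of the 40 were called higher, 20 not called and 17 lower. Ifit2, Oasl1, Ccl4, Pmaip1 and Bbc3 had the largest ratios. Otud1, a deubiquitinase, was at 90.5, 73.6 and 95 CPM under MSA2 and 191, 179 and 160.0 CPM in the combination, with Control at 52, 43.2 and 49.98 CPM (log2 1.03 ± 0.11, adjusted p = 1.95e-05). Plk2, a stress-linked kinase, was at 494, 509.6 and 455 against 896, 898 and 933 CPM, with Control at 319, 419 and 424 CPM (log2 0.90 ± 0.11, adjusted p = 5.62e-05). Tiparp, a mono-ADP-ribosyltransferase, was at 219.8, 193 and 246 against 400.0, 396 and 437 CPM and at 109, 124 and 133 CPM in Control (log2 0.91 ± 0.10, adjusted p = 3.49e-05). In these 3 genes MSA2 lay between Control and the combination on the TMM scale. On the B marker scale none of the 3 was called. Their differences from MSA2 there were 0.13 (Otud1, adjusted p = 0.245), -0.003 (Plk2, adjusted p = 0.982) and 0.004 (Tiparp, adjusted p = 0.969). Rnf122, a ubiquitin ligase, was called higher on both scales, but on the B marker scale not without any 1 Control library or the first or the third MSA2 library or the first or the second combination library (adjusted p = 0.0612 to 0.173). It was at 21.6, 21 and 22.3 CPM in Control and at 23.7, 23.9 and 21.1 CPM under MSA2, close to each other, and at 53.9, 50.5 and 45.8 CPM in the combination.

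In 7 of the 40 the MSA2 mean was at or under Control, so that on the TMM scale the combination alone stood high. The B cell marker sums were also lowest under MSA2, at a mean of 5251 CPM against 10068 in Control and 10054 in the combination. No level relative to these markers was compared with Control. Cxcr5, the receptor that guides B cells into follicles, was at 809.9, 798 and 884 CPM in Control, 656, 623 and 747 CPM under MSA2 and 1325, 1314 and 1455 CPM in the combination (log2 1.02 ± 0.10, adjusted p = 7.56e-06). Its combination level was 1.64 times that of Control, and on the B marker scale the difference from MSA2 was 0.11 ± 0.08 (adjusted p = 0.202). Pxdc1, a phosphoinositide-binding protein gene, was at 56.8, 63.3 and 64.5, then 44.4, 37.2 and 54.6, then 105, 97 and 124 CPM in the same order of groups (log2 1.26 ± 0.14, adjusted p = 1.94e-05), and was called higher on the B marker scale (0.36 ± 0.12, adjusted p = 0.0154), except without the second MSA2 library or the third combination library (adjusted p = 0.0554 to 0.0632).

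Of the 25 genes below Control, 9 had an MSA2 mean at or under Control and 16 above it. Socs3 (GRCm38 chr11:117966079-117970047), the feedback inhibitor of STAT3 signalling, was at 93.8, 116 and 106 CPM in Control, 67.4, 78.9 and 80.9 CPM under MSA2 and 33.6, 34.7 and 41.9 CPM in the combination (log2 -1.04 ± 0.11, adjusted p = 1.96e-05). Dusp5, a phosphatase that switches off ERK in the nucleus, was at 243, 297 and 260.3 CPM in Control, 234, 224 and 274 CPM under MSA2 and 163, 153 and 179 CPM in the combination (log2 -0.56 ± 0.11, adjusted p = 0.00128). Osgin1, an oxidative stress response gene, was at 7.13, 11.4 and 11.9, 5.26, 6.65 and 6.01 and 2.12, 3.16 and 1.89 CPM in that order (log2 -1.32 ± 0.24, adjusted p = 0.000928). Trib1, a pseudokinase that directs protein breakdown, was at 42.9, 59.6 and 62.1 CPM in Control, 60.8, 80.02 and 39.5 CPM under MSA2 and 27.3, 27.9 and 16.7 CPM in the combination (log2 -1.32 ± 0.26, adjusted p = 0.00177). Cebpb, a transcription factor of myeloid and activated cells, fell from 56.3, 71.3 and 73.9 to 24.8, 20.5 and 25.5 CPM, with Control at 45.5, 64.2 and 48.1 CPM (log2 -1.51 ± 0.15, adjusted p = 1.03e-05). The 25 also held genes of other lineages, whose marker sums moved in the same libraries. The Control mean was 28.2 times the combination mean in S100a9, the furthest of the 25, 2.29 times in Ccr1 and 2.14 times in Il1b, both of myeloid cells. It was 1.88 and 1.71 times in the globin genes Hba-a2 and Hbb-bs, and 1.58 and 1.58 times in Hdc, the histamine enzyme of basophils, and Prf1, the perforin of killer cells. For Socs3, Dusp5, Osgin1, Trib1 and Cebpb each combination library lay below every library of both other groups, and all were called lower on both scales.

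**Figure D5:**
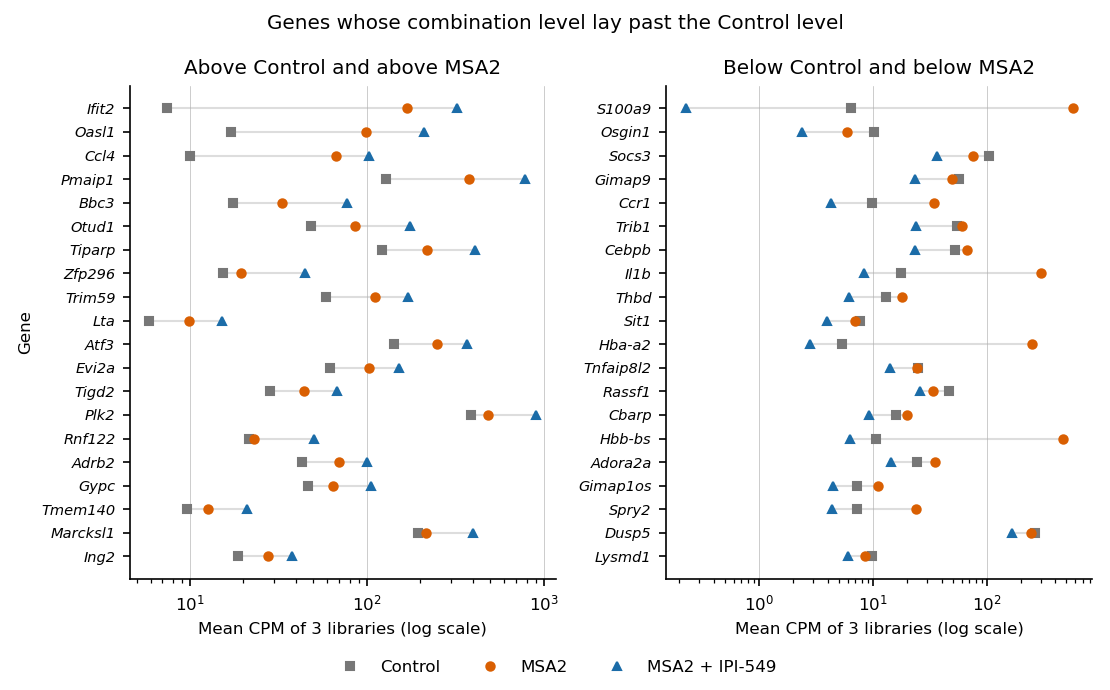
Mean CPM of 3 libraries (log axis) for the 20 genes furthest above Control (left) and the 20 furthest below (right) among the 40 and 25 genes of this kind; Control squares, MSA2 circles, combination triangles. On the left the triangle is rightmost for every gene, and on the right it is leftmost.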

How the data were processed

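RNA of splenic B cells was sequenced in 9 libraries (3 groups of 3). The deposited table of the authors holds expected counts per gene with 1 column per library, and these were rounded to whole numbers before the fits. For this table the submitters' processing notes name GRCm38, RSEM 1.3.3, STAR 2.7.8a and cutadapt 4.8. The strand setting is not given in the sources used here. The table of dendritic cells was not used here. All 9 libraries were fitted together with edgeR 4.0.16 (R 4.3.3; filterByExpr, TMM factors, quasi-likelihood F test, Benjamini-Hochberg adjustment over 16180 genes, calls at 0.05), and again with factors that equalise the 14 B cell markers. Control CPM split genes at 5 and 1 CPM. In simulated data with 15935 genes for this comparison, 63 genes were changed by 1.5-fold, 68 by 2-fold and 69 by 4-fold. Of these changes 46.0%, 82.4% and 100% were recovered, and 3.14% of calls were unchanged genes. Far fewer genes were changed than were called in the data, so these rates need not hold for the data.

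The 37 gene lists and the rule for named genes (key genes, the 10 largest called changes per direction and Control class, and up to 4 called members per list with up to 2 against the trend) were chosen with earlier results of these data known. Other genes named were chosen after their values were seen, and some items are not reported here. The labels' title suffixes (none, replicate, replicate2) do not say what is shared, but same-suffix MSA2 and combination libraries deviated together (correlations 0.481, 0.392 and 0.618 over 9733 genes), so the suffix was tried as a block. Intervals and floors cover counting error only. Alternatives were RLE and upper quartile factors, other filters, DESeq2 1.42.0, limma-voom (limma 3.58.1), a minimum of 1.5-fold, the 6 compared libraries alone, and leaving out each library.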

Additional observations from a re-analysis of the deposited data

How the results depend on the processing

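The 2279 higher and 3706 lower calls ranged from 1563 to 2346 and from 3414 to 3846 when 1 library was left out, with 4977 to 6080 genes called in all against 5985. Genes called on the B marker scale ranged from 13181 to 13967, those higher on it from 12 to 35, those called among genes expressed in Control from 2455 to 3326, and those near absent in Control from 1748 to 1996. Against a minimum of 1.5-fold, 2614 genes were called (217 higher and 2397 lower), 3 were higher on the B marker scale and 566 of the genes expressed in Control were called. Scaling to the B cell markers raised that last count from 3314 to 8837. Keeping only genes with at least 1 CPM in 3 libraries tested fewer genes and lowered the calls among genes near absent in Control from 1825 to 989. With the B cell receptor and coreceptor genes alone as the scaling set, 10 genes were higher on the B marker scale in place of 22. RLE and upper quartile factors and DESeq2, run on the TMM scale, and limma-voom and the 6 compared libraries alone, run on both scales, moved none of the counts computed with them by more than 1.5 times. No gene described and called reversed its direction on its own scale. Values without a call crossed 0, such as Ifnb1 (-0.33 to 0.53 with 1 library left out) and Sting1 (-0.06 to 0.06), and so did list medians near 0 under the alternatives, among them MHC class I (-0.09 to 0.08), platelet (-0.18 to 0.08), costimulation (-0.01 to 0.07) and immediate early genes (-0.11 to 0.33). DESeq2 called 4 immediate early genes higher and 3 lower, in place of 2 and 4. Of the genes described, counting each alternative separately, genes without a call included, 1169 outcomes on the TMM scale were the same with 1 library left out, 32 calls were lost and 5 gained, and on the B marker scale 1114 were the same, 81 lost and 11 gained.

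The title suffix as a replicate block, used because same-suffix libraries deviated together, gave 2597 higher and 3804 lower genes, and 30 higher on the B marker scale. It changed the calls of Ebi3, Ifna1, Ifna2, Il12a and Cd86 given above and of 3 gene models among the 22 genes, and no other call of a gene described here. The block with the 6 compared libraries alone, added after seeing the data, gave 41 genes higher on the B marker scale.

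The 3 libraries of a group limit what could be detected, and genes without a call are not shown to be alike in the groups. Of 1.5-fold changes 46.0% were recovered in the simulation, which changed far fewer genes than were called in the data. Counts of a few reads, as for most genes of other lineages in the combination, allow no precise fold. RSEM expected counts split reads between similar copies, which touches alpha interferon, MHC class I and globin genes, and the strand setting is not given in the sources used here. Library number, the difference between MSA2 alone and the combination, and the levels of other lineages' markers cannot be told apart in this design.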

Other observations

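A row named eGFP was present in the B cell table at 69.1, 76.9 and 80.3 CPM in Control, 72.4, 61.3 and 100.3 CPM in the MSA2 libraries and 81.7, 77.6 and 113 CPM in the combination libraries (log2 0.22 ± 0.18, adjusted p = 0.372). It was called higher without the third MSA2 library (adjusted p = 0.0425). No label names a fluorescent reporter.

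The third MSA2 library and the third combination library shared several features. Their heat shock gene sums were the highest of the 9 B cell libraries, at 11408 and 8804 CPM, while the other 7 lay between 4805 and 6296 CPM. Their Tnf levels were also the lowest of their groups, at 53.4 and 43.8 CPM. Their integrated stress response sums, at 7428 and 8034 CPM, and their eGFP levels given above were also the highest of the 9. The third library of Control, at 6015 CPM of heat shock genes, was within the range of the rest.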
